A study of Mus musculus with 19 samples.

Results

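Mouse chromosome 12 (Chr12) was examined by array comparative genomic hybridization (aCGH) in 10 liver tumors and 9 unaffected livers, with the segment around 71 Mb and the immunoglobulin heavy chain region left out. aCGH compares the DNA of a sample with that of a normal control on printed probes, so that a chromosome lost from many cells of the sample gives a lower ratio along its length. Every probe position that the arrays place on Chr12 in the mm9 build was taken, except 70.6 to 71.25 Mb and everything from 114.4 Mb to the end. This left 9471 of 10295 Chr12 positions, among 221455 positions on the 19 autosomes. The members ran from 3.10 to 114.4 Mb with a median spacing of 7753 bases, and they filled 23 bins of 5 Mb out of 498 bins on all autosomes. RefSeq (GRCm38.p6) lists 679 protein-coding genes on this chromosome. The arrays' files name a position and not a gene, so all values below are for stretches of the chromosome.

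All 9 mice carried Mad2(f/f) with AlbuminCre, which removes the spindle checkpoint gene Mad2l1 in hepatocytes and leaves it in the other cells of the liver. The 4 hepatocellular adenomas (HCAs) came from 4 female mice of strain C57BL/6.129-Mad2flox,p53flox,AlbuminCre, of which mice 2430 (16.9 months) and 6199 (12 months) were p53(f/f) and mice 5884 (14.2 months) and 5901 (12 months) were p53(f/+). The 6 hepatocellular carcinomas (HCCs) came from 5 mice labelled p53ser246+ of strain C57BL/6.129-Mad2flox,p53ser249,AlbuminCre, namely the females 6240 (16.2 months, HCC tumors 2 and 4) and 6602 (13.2 months) and the males 6487 (12.8 months), 6565 (14.7 months) and 6642 (12.3 months). Each mouse also gave 1 piece of unaffected liver, and each control was liver of a C57BL/6.129 animal of the opposite sex. Tumor type and Trp53 genotype coincide in these samples and cannot be told apart. DNA holds no cell type markers, so the labelled tissues were not checked that way.

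The checkpoint protein Mad2 holds a dividing cell back until every chromosome is attached to the spindle. Without it, daughter cells may receive a wrong number of whole chromosomes, which changes the dose of all genes of a chromosome together. A break in a chromosome followed by loss of a piece gives a different picture, in which the ratio steps from one level to another at the break. Mouse Chr12 is acrocentric, so its first positions lie next to the centromere. In RefSeq order its genes include Dnmt3a (a DNA methyltransferase) and Apob (the protein core of liver lipoproteins) near the centromere, then Mycn (a Myc family transcription factor), Ahr (the dioxin receptor), Foxa1 (a hepatocyte transcription factor), Hif1a (the oxygen-regulated transcription factor), Fos (an AP-1 subunit), Serpina1a (an alpha-1-antitrypsin made by hepatocytes), Dicer1 (the microRNA-processing enzyme), the imprinted genes Dlk1 and Meg3, and Akt1 (a growth-signalling kinase) toward the far end.

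The ratios are log2 of sample over control, centred so that the median of the autosomal positions of an array is 0. Between 98.4 and 99.9% of positions per array stood well above background in both channels, and the standard error of a Chr12 mean over its positions was at most 0.0044. That error takes neighbouring positions as independent and does not measure the spread between samples. Between unaffected livers the Chr12 mean had an SD of 0.026. The X chromosome gave a scale for the loss of one copy of a pair, because sample and control differed in sex. It read 0.89 to 1.04 in the 6 livers of female mice and −1.02 to −0.90 in the 3 livers of male mice. The array of the liver of mouse 6240 had the largest noise (a robust SD of the differences between neighbouring positions, 0.418 in log2 units, the other arrays 0.179 to 0.333), and the X ratio of HCC tumor 2 of the same mouse was 0.32 where its liver read 1.04. The main comparisons below are therefore also given without the arrays of mouse 6240.

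Chr12 was lower in the tumors than in unaffected liver, in both tumor types. The mean ratio of the 4 HCAs was −0.23 ± 0.14 (SD over tumors). That of the 6 HCCs was −0.21 ± 0.18 (SD over tumors), while the 9 unaffected livers stood at 0.011 ± 0.026 (SD over livers). The HCAs read −0.35 in mouse 2430, −0.06 in mouse 5884, −0.16 in mouse 5901 and −0.34 in mouse 6199. The HCCs read −0.15 in tumor 4 and −0.02 in tumor 2 of mouse 6240, −0.42 in mouse 6487, −0.01 in mouse 6565, −0.27 in mouse 6602 and −0.39 in mouse 6642. The livers ran from −0.03 to 0.07 with a median of 0.0075. All 4 HCAs lay below every liver, and so did 4 of the 6 HCCs. HCC tumor 2 of mouse 6240 and the HCC of mouse 6565 lay within the range of the livers.

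**Figure D1:**
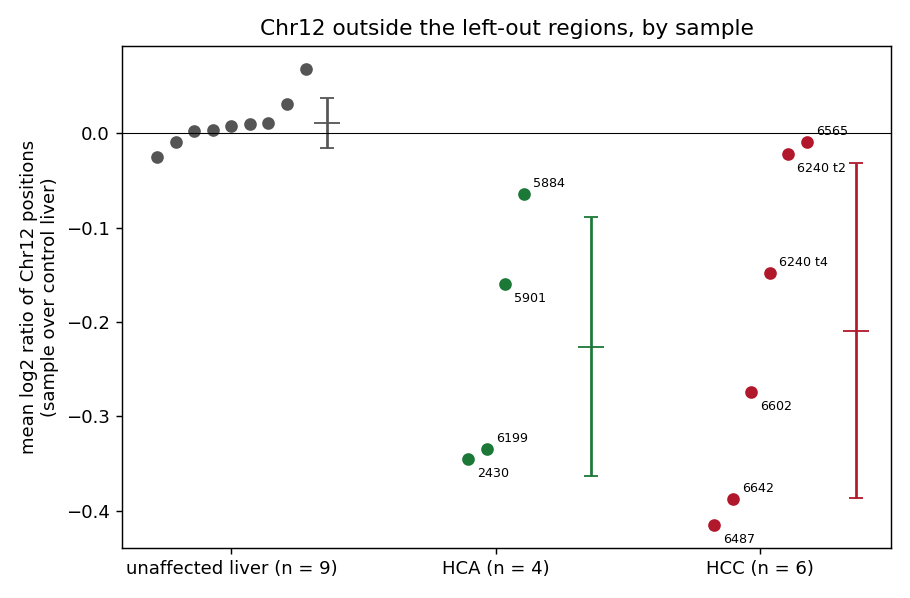
Mean log2 ratio of sample over control liver across the Chr12 positions (vertical axis), 1 point per array, by group (horizontal axis), with mean and SD beside each group and mouse numbers beside the tumors (t2 and t4 are the HCCs of mouse 6240). The livers sit between −0.03 and 0.07, while the tumors spread from −0.42 to −0.01.

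HCA minus liver came to −0.24 (p = 0.0014 in an exact two-sided permutation test over 715 assignments, the smallest p this design allows; adjusted p = 0.0044 over the 19 autosomes). HCC minus liver came to −0.22, with p = 0.0010 over 5005 assignments and an adjusted p of 0.011 by the same exact test. HCC minus HCA came to 0.02, with a standard error of 0.07 in limma, and by exact permutation p was 0.85 (adjusted p = 0.97). The call for HCC against liver was lost with normexp background correction (−0.09, adjusted p = 0.11 by exact permutation), in female mice alone (−0.17, adjusted p = 0.090 by exact permutation) and with permutation inside scan days (−0.24, adjusted p = 0.0503 by exact permutation). Without the 3 arrays of mouse 6240, HCC minus liver was −0.28 (adjusted p = 0.026 by exact permutation).

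The arrays were scanned on 3 days, and the lower Chr12 ratio was seen on each. On the first day the 2 HCAs averaged −0.20 and the 3 livers 0.0045. On the second day the 2 HCAs averaged −0.25, the 1 HCC read −0.42 and the 2 livers averaged 0.00065. On the third day the 5 HCCs averaged −0.17 and the 4 livers 0.02. No HCC was scanned on the first day and no HCA on the third.

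Set beside the matched liver from its own mouse, Chr12 was lower in all 10 tumors, by amounts that differed widely, although the value of the HCC of mouse 6565 turned to 0.006 with no centring and 0.06 with normexp. Chr3, Chr9 and Chr13 were likewise lower than own liver in all 10 tumors. Tumor minus liver of the HCAs was −0.32 in mouse 2430, −0.07 in mouse 5884, −0.19 in mouse 5901 and −0.35 in mouse 6199. The HCCs gave −0.22 for tumor 4 and −0.09 for tumor 2 of mouse 6240, −0.41 in mouse 6487, −0.01 in mouse 6565, −0.28 in mouse 6602 and −0.39 in mouse 6642. Averaged per mouse, the difference was −0.23 ± 0.13 (SD, n = 4) for HCA and −0.25 ± 0.17 (SD, n = 5) for HCC. An exact sign-flip test over mice gave p = 0.125 and p = 0.0625, the smallest values that 4 and 5 mice allow. Without mouse 6240 the HCC difference was −0.27 (exact sign-flip over 4 mice, p = 0.125). Over all 9 mice, a grouping chosen after the values were seen, the difference was −0.24 ± 0.14 (SD, n = 9; exact sign-flip, p = 0.0039, the smallest possible), and without mouse 6240 it was −0.25 (exact sign-flip, p = 0.0078).

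As a share of signal, Chr12 DNA was 24.5% lower than in own liver in the HCC of mouse 6487, 23.7% lower in that of mouse 6642, and 21.3% and 19.9% lower in the HCAs of mice 6199 and 2430. It was 17.8% lower in the HCC of mouse 6602, 13.95% in tumor 4 of mouse 6240 and 12.4% in the HCA of mouse 5901. The remaining tumors were lower by 6.04% (HCC tumor 2 of mouse 6240), 4.85% (HCA 5884) and 0.903% (HCC 6565). Set against the X ratio of the same mouse's liver, the deepest of these decreases, in the HCC of mouse 6487, reached 45.0% of the size measured for a difference of one copy of a pair, and the HCC of mouse 6642 reached 42.6%. The HCAs reached from 7.37% (mouse 5884) to 36.6% (mouse 6199). This scale holds for cells with a pair of each autosome, and the study describes hepatocytes as normally polyploid. In these bulk samples a loss in a share of the cells, a mixture with normal cells and a loss from polyploid cells cannot be told apart. The number of chromosome sets per cell was not tested.

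With the cut-off of ±0.3 that the study used for the mean of a chromosome, 2 of 4 HCAs (mice 2430 and 6199) and 2 of 6 HCCs (mice 6487 and 6642) counted as Chr12 loss, both as plain ratios and against own liver, and 0 of 9 livers did. The members nearest that cut-off were the HCA of mouse 2430 (−0.32 against own liver) on one side and the HCC of mouse 6602 (−0.28) on the other. Other autosomes also passed −0.3 against own liver. Chr9 did in HCA 2430 (−0.39) and HCC 6642 (−0.42), and Chr13 in HCA 2430 (−0.34) and HCC 6487 (−0.38). Chr3 did in HCC 6642 (−0.35) and Chr10 in HCA 2430 (−0.32). The share over all autosomes was not counted at this cut-off. Within HCA, both p53(f/f) tumors (−0.32 and −0.35) were lower than both p53(f/+) tumors (−0.07 and −0.19), with 2 animals each (p = 0.33 by exact permutation, which 2 against 2 cannot go below). Within HCC, the 3 tumors of males averaged −0.27 ± 0.22 (SD) and the 3 of females −0.20 ± 0.10 (SD). The 3 tumors of females came from 2 animals, since mouse 6240 gave 2 of them. The difference was within the spread between tumors (exact permutation test with tumors as units, p = 0.60, where 3 against 3 cannot go below 0.10).

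The decrease ran along the whole chromosome. Of the 23 bins of 5 Mb, 22 were lower in HCA than in liver (limma, adjusted p under 0.05 over all 498 bins), against 26.9% of all autosomal bins. In HCC 22 of 23 were lower, against 20.1% of all bins. None differed between HCC and HCA (limma; 0 of 23 also at an unadjusted p under 0.05), while 21.5% of all bins did. With a replicate block for the mouse, 0 of 498 bins differed between HCC and HCA, so that this contrast with the other autosomes was not seen there. In HCA the bin that missed the threshold was at 15 to 20 Mb (−0.20 ± 0.09 SE, adjusted p = 0.055 by limma). In HCC it was at 25 to 30 Mb (−0.19 ± 0.07 SE, adjusted p = 0.056 by limma). The bins from 0 to 15 Mb, nearer the centromere, were called in both types. The unaffected livers spread most in the bins that missed it, with SDs of 0.087 and 0.076. With normexp background correction 11 of 23 bins (59 of 498 on all autosomes) were lower in HCA, and for HCC no autosomal bin was called (0 of 498), nor was any in female mice alone (0 of 498). Without the arrays of mouse 6240, 23 of 23 bins were lower in both tumor types, against 148 of 498 for HCA and 100 of 498 for HCC.

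Among the bins, the mean of HCA minus liver lay between −0.27 (65 to 70 Mb) and −0.20 (15 to 20 Mb), and that of HCC minus liver between −0.25 (0 to 5 Mb) and −0.19 (50 to 55 Mb). The first bin, next to the centromere, and the last, at 110 Mb and beyond, gave −0.27 and −0.21 for HCA and −0.25 and −0.21 for HCC. All 4 HCAs were below all 9 livers in 19 of 23 bins, against 23.7% of all autosomal bins. All 6 HCCs were below all livers in 3 of 23 bins, against 0.803% of all bins, namely those starting at 0, 65 and 75 Mb. Without mouse 6240 it was again 3 of 23, against 6.02% of all bins. The 7 tumors with the deepest mean, from −0.41 to −0.19 against own liver, were each below every liver in all 23 bins. The other tumors were so in 19 (HCA 5884), 8 (HCC tumor 2 of mouse 6240) and 3 (HCC 6565) bins. These counts per tumor only describe Chr12. The tumors were ordered by their Chr12 mean, and the same count was not made on the other autosomes.

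**Figure D2:**
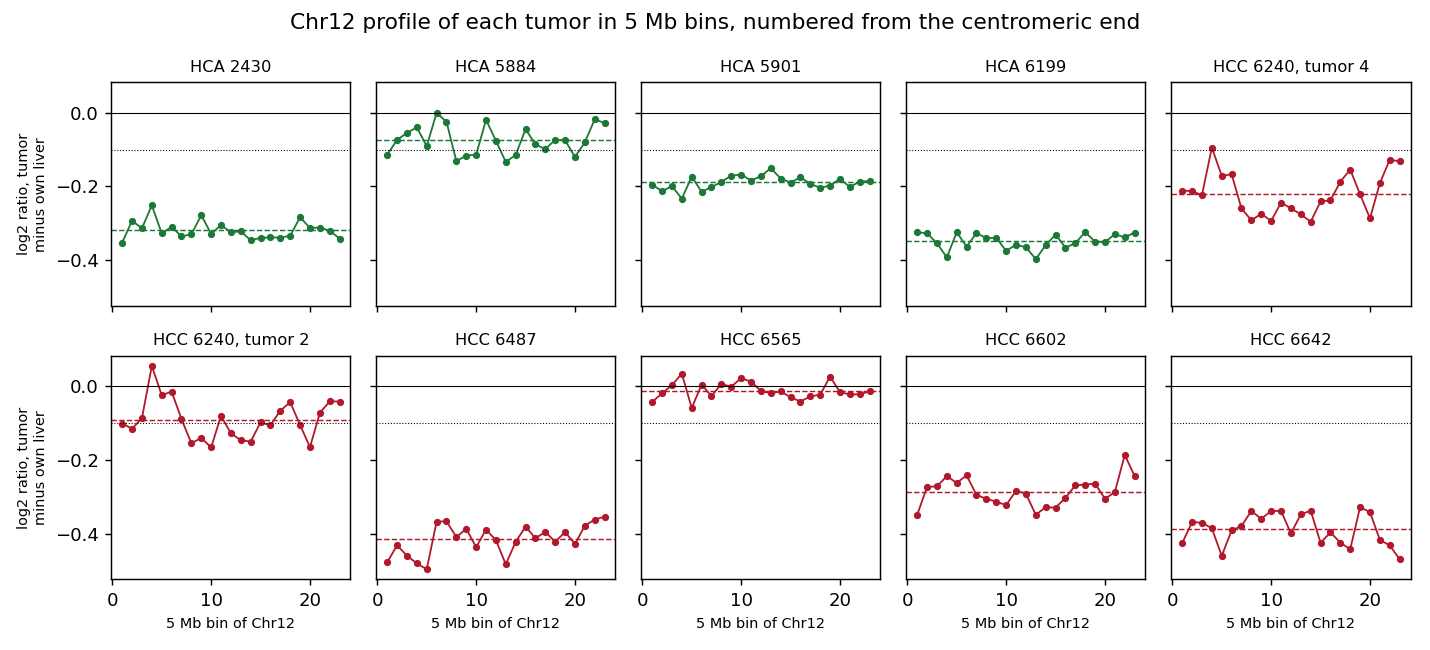
Log2 ratio of each tumor minus its own liver (vertical axis) in the 23 bins of 5 Mb, numbered from the centromeric end (horizontal axis), 1 panel per tumor. The dashed line is the mean over bins and the dotted line marks −0.1. The profiles of HCAs 2430, 5901 and 6199 and HCCs 6487, 6602 and 6642 stay below −0.1 from end to end, and the shallow ones of HCA 5884 and HCC tumor 2 of mouse 6240 cross that line back and forth.

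Whole-chromosome and partial loss were told apart by the share of bins at or below −0.1 in tumor minus own liver. A tumor with at least 90% of bins there was called a whole-chromosome loss, one with 10 to 90% partial and one with fewer none. By this rule 7 tumors had whole-chromosome loss of Chr12, 2 partial and 1 none. Across all 190 pairs of a tumor and an autosome, 22.6% were whole and 13.2% partial. Of the 9 livers, set against the mean of the livers of the other mice, 0 had whole or partial loss of Chr12. The rule did call other autosomes of livers, 3 whole and 9 partial out of 171 pairs of a liver and an autosome. The outcome rests on the cut-off: at −0.3, 3 tumors were whole, 2 partial and 5 none, and at −0.2, 5 were whole, 2 partial and 3 none. Without mouse 6240, 6 tumors were whole, 1 partial and 1 none. At these other cut-offs and without mouse 6240, the classes were not counted on the other autosomes.

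Of the whole-chromosome losses, 6 had all 23 bins at or below −0.1 and 1, HCC tumor 4 of mouse 6240, had 22. The HCA of mouse 6199 stayed between −0.40 and −0.32 over its bins, that of mouse 2430 between −0.35 and −0.25 and that of mouse 5901 between −0.23 and −0.15. The HCC of mouse 6487 stayed between −0.50 and −0.35, that of mouse 6642 between −0.47 and −0.33 and that of mouse 6602 between −0.35 and −0.19. These 6 were the tumors with every bin at or below −0.1, so a highest bin below 0 follows from how they were picked. In HCC tumor 4 of mouse 6240 the bins ran from −0.30 to −0.09.

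The 2 tumors called partial had shallow profiles that lay close to the cut-off. The HCA of mouse 5884 had 7 of 23 bins at or below −0.1, with a lowest bin of −0.13 and a highest of about 0. HCC tumor 2 of mouse 6240 had 11 of 23, with bins from −0.17 to 0.05. In both, the bins at or below the cut-off did not form one block: in HCA 5884 they were those starting at 0, 35, 40, 45, 60, 65 and 95 Mb. The HCC of mouse 6565 had 0 of 23 bins at or below −0.1 and ran from −0.06 to 0.03.

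The unevenness of the profile did not set tumors apart from livers. The SD over the 23 bins, each sample against the mean of the livers of the other mice, averaged 0.032 over the 4 HCAs and 0.039 over the 6 HCCs, with an SD among tumors of 0.007 and 0.015. Over the 9 livers it averaged 0.039 with an SD of 0.010. Its values ran from 0.017 to 0.053 in the tumors and from 0.026 to 0.054 in the livers, so that the groups overlapped. Tumors differed from livers by −0.003 (exact permutation test over 92378 assignments, p = 0.54), and by 0.0011 without mouse 6240 (exact permutation, p = 0.85). The largest decrease of a single tumor, −0.41 in the HCC of mouse 6487, thus came with an SD over bins of 0.051, and the liver of that mouse had an SD of 0.052.

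A break was then sought in windows of 20 neighbouring positions (473 windows, median length 156 kb), as the point that best divided the chromosome into a part toward the centromere and a part toward the far end. In absolute log2 units the largest step averaged 0.055 ± 0.017 over the 4 HCAs and 0.045 ± 0.018 over the 6 HCCs (SD over tumors). The 9 livers had 0.056 ± 0.026 (SD over livers). It ranged from 0.024 to 0.077 over the tumors and from 0.022 to 0.089 over the livers. Tumors differed from livers by −0.007 (exact permutation test over 92378 assignments, p = 0.49), and by −0.0038 without mouse 6240 (exact permutation, p = 0.73). In the deeper tumors the step was small beside the mean decrease, such as 0.046 against −0.35 in the HCA of mouse 6199 and −0.07 against −0.39 in the HCC of mouse 6642. In shallow ones it was not, with −0.08 against −0.07 in the HCA of mouse 5884 and −0.04 against −0.01 in the HCC of mouse 6565. Against own liver instead, the SD over bins ran from 0.018 to 0.058 over the 10 tumors, and the signed step from −0.05 (HCC 6642) to 0.08 (HCC 6602, at 104.5 Mb).

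**Figure D3:**
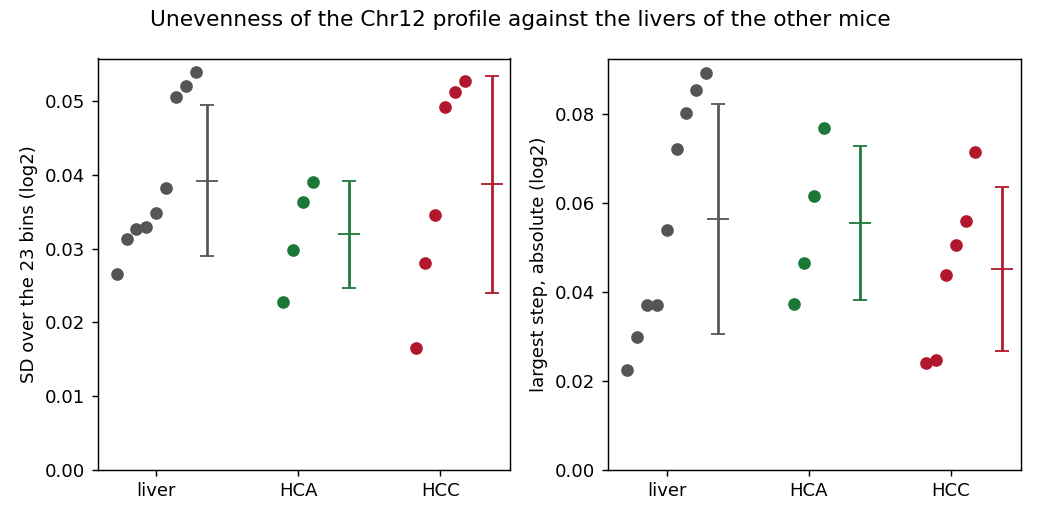
SD over the 23 bins (left) and absolute largest step (right), both in log2 units on the vertical axis, 1 point per array by group (horizontal axis) with mean and SD. Livers, HCAs and HCCs overlap in both panels, and the highest value in each belongs to a liver.

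In some mice the largest step of the tumor lay close to that of its own liver. In mouse 2430 the step of the HCA (0.06) and that of the liver (0.09) fell at the same window, at 105.7 Mb. In mouse 5901 they fell at 99.6 Mb in the HCA and 99.8 Mb in the liver, both with a step of 0.04. In mouse 6487 they fell at 31.6 Mb (HCC, −0.05) and 29.5 Mb (liver, −0.09). In other mice the steps lay far apart and had opposite signs, at 103.3 Mb in the tumor and 36.2 Mb in the liver of mouse 6199, and at 103.3 and 36.6 Mb in mouse 6642. Tumor and own liver had the same sign in 7 of 10 tumors. Both were set against the same mean of the other livers, so shared places and signs are partly built in and only describe the profiles. The same windows also recurred between mice. The step fell at 99.8 Mb in the liver of mouse 5901 and HCC tumor 4 of mouse 6240. It fell at 32.1 Mb in the livers of mice 6565 and 6602. The mice are of mixed C57BL/6 and 129 descent, and the part of this in the steps was not tested.

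The 2 HCCs of mouse 6240 gave profiles that ran side by side. Tumor 4 was below tumor 2 in every bin, by −0.17 to −0.09, with a mean difference of −0.13 and an SD of 0.022 over the 23 bins. Their profiles against the shared liver had a correlation of 0.93 over the 23 bins, which is a description only, since both subtract the same liver array. That array had an SD over bins of 0.051 against the livers of the other mice, above that of tumor 4 (0.017) and tumor 2 (0.028) measured the same way.

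Within the measured part of Chr12, short stretches that departed from the rest of the chromosome were few. The left-out regions were removed from Chr12 only, and the other autosomes entered whole, so the shares below are not like for like. Of 4730 windows over the 10 tumors, 2 lay 0.3 or more below the median of the chromosome in tumor minus own liver, against 0.221% of windows on all autosomes, and 6 lay 0.3 or more above, against 0.326%. The lower ones were in the HCA of mouse 2430 (chr12:89786929-90060682, −0.45) and that of mouse 5884 (chr12:102281602-102597975, −0.42). The higher ones reached 0.40 in the HCA of mouse 2430 and 0.37 in HCC tumor 2 of mouse 6240. The HCCs of mice 6487, 6565, 6602 and 6642 had none in either direction within the measured part. The left-out locus, deep in the HCC of mouse 6487 and HCC tumor 2 of mouse 6240, is not among these windows.

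The locus left out at 70.6 to 71.25 Mb, with 83 positions, followed the rest of Chr12 in 8 of the 10 tumors, where locus minus rest lay between −0.04 and 0.08 (livers −0.08 to 0.07). In 2 HCCs it was far lower. The HCC of mouse 6487 read −1.19 at the locus and −0.42 on the rest of the chromosome, and HCC tumor 2 of mouse 6240 read −0.78 at the locus and −0.02 on the rest. The deep ratio at the locus thus occurred once in a tumor with the largest Chr12 decrease and once in a tumor within the range of the livers.

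**Figure D4:**
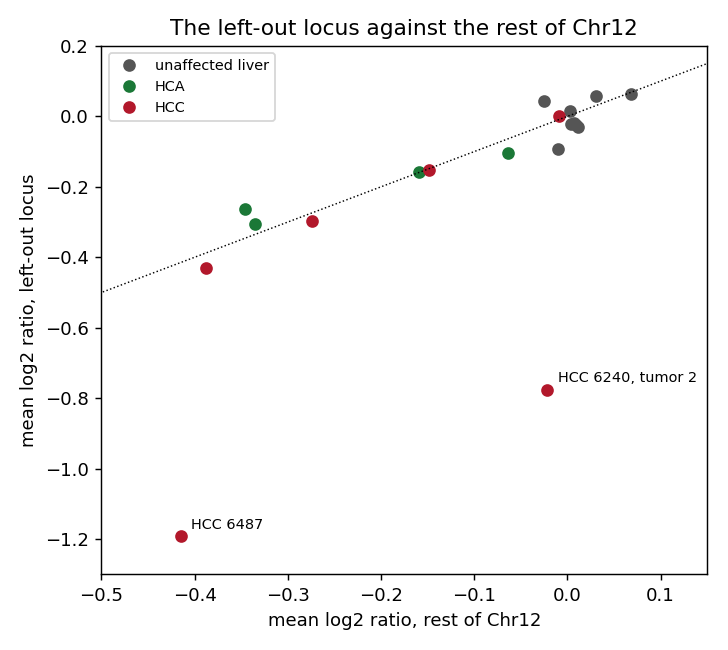
Mean log2 ratio of the left-out locus (vertical axis) against that of the rest of Chr12 (horizontal axis), 1 point per array, coloured by group, with equality as a dotted line. All points lie near the line except the HCC of mouse 6487 and HCC tumor 2 of mouse 6240, at −1.19 and −0.78.

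Within a tumor, Chr12 was often among the lowest autosomes. Here and in the next paragraph Chr12 lacked its left-out regions, while the other autosomes entered whole. Ranked by tumor minus own liver over the 19 autosomes, with 1 the lowest, it stood first in the HCA of mouse 6199 and the HCCs of mice 6487 and 6602, and at rank 2 in the HCC of mouse 6642. It stood at rank 3 in the HCAs of mice 2430 and 5901, 4 in HCC tumor 4 and 5 in tumor 2 of mouse 6240, 8 in the HCA of mouse 5884 and 10 in the HCC of mouse 6565. Whole-chromosome loss by the bin rule was counted for Chr12 in 7 tumors, for Chr13 in 9, for Chr3 in 8 and for Chr9 in 4. Chr9 had 4 further tumors with partial loss, Chr12 had 2, Chr13 had 1 and Chr3 had 0.

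The mean decrease of Chr12 did not differ beyond the spread between mice from that of Chr13, Chr3 or Chr9, which were chosen after the values were seen. Chr12 minus Chr13, in tumor minus own liver, was −0.004 ± 0.13 (SD, n = 9 mice; exact sign-flip test, adjusted p = 0.94 over the 3 comparisons). Against Chr3 it was −0.04 ± 0.09 (SD, n = 9; exact sign-flip, adjusted p = 0.62) and against Chr9 −0.05 ± 0.19 (SD, n = 9; exact sign-flip, adjusted p = 0.75). Without mouse 6240 the differences were −0.013, −0.046 and −0.044 in the same order (exact sign-flip, adjusted p = 0.80 for each). With all Chr12 positions kept they were −0.002, −0.043 and −0.044 (exact sign-flip, adjusted p = 0.96, 0.66 and 0.77). The HCC of mouse 6565 illustrates the spread behind these means, with −0.01 on Chr12, −0.24 on Chr13 and −0.28 on Chr9.

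**Figure D5:**
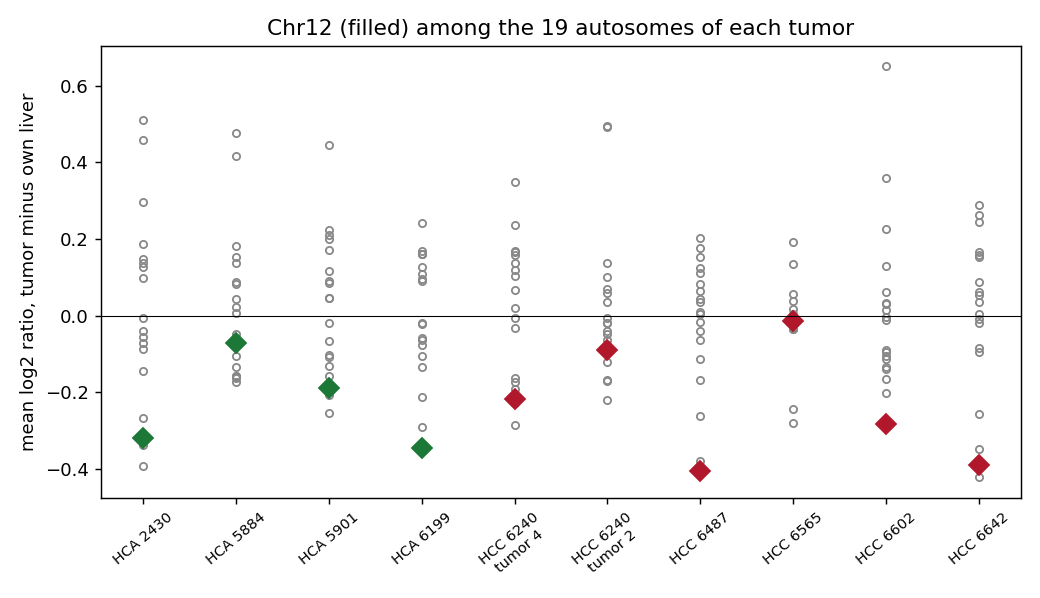
Mean log2 ratio of tumor minus own liver (vertical axis) for each autosome of each tumor (horizontal axis), with Chr12 as a filled diamond and the other 18 autosomes as open circles. Chr12 is the lowest autosome in HCA 6199, HCC 6487 and HCC 6602, and sits at −0.01 in the middle of HCC 6565.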

How the data were processed

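Genomic DNA of 10 tumors and 9 livers was labelled with Cy5 and hybridised against control liver DNA in Cy3 on Agilent mouse CGH arrays with 243301 spots. The authors' Feature Extraction 10.5.1.1 files deposited per array hold spot intensity, background and flags, and a log10 ratio of red over green from background-subtracted, dye-normalized signals; the series table holds the same log10 ratio. Here the deposited log10 ratio of each array was taken as it stands and turned to log2. Control spots and outlier-flagged spots (0.069 to 0.29% per array) were dropped. Spots of a probe were averaged and each array was centred on its autosomal median. No loess was applied. Of the members, 101 lacked a value on some array.

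Chromosome means were compared by exact permutation (Python 3.11.15, numpy 2.4.6, scipy 1.17.1) with Benjamini-Hochberg adjustment over 19 autosomes, and bins with at least 50 positions by limma 3.58.1 (R 4.3.3) over 19 arrays. The scripts were tested on simulated data. The regions, cut-offs and lists were chosen with earlier results of these data known. The bins named are the lowest, the highest and those at the ends or next to the threshold. A gene-level test was not run, since the files used here do not pair probes with genes. Tumor and liver were paired by the mouse number in their labels. Their deviations from the group means over the autosomes correlated at −0.26 to 0.28, which by itself does not show the pairing. Arrays of a group correlated pairwise at most at 0.72 over the members, so none was a copy of another. Given the noise of the arrays, this value cannot tell whether the same DNA was hybridised again. The 2 HCCs of mouse 6240 entered the group tests and limma as separate samples, and tumors stand beside livers of the same mice, so those p-values measure the spread between samples; the sign-flip tests are over animals.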

Additional observations from a re-analysis of the deposited data

Results flagged for a closer look

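Among 19 groups of samples examined for a single distant value, on 8 measures of Chr12, none had one. Signal outside the measured stretch stood out in 2 tumors. The locus left out at 70.6 to 71.25 Mb was lower than the rest of Chr12 by −0.75 in HCC tumor 2 of mouse 6240 and by −0.78 in the HCC of mouse 6487, while locus minus rest in the 9 livers lay between −0.08 and 0.07.

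The X chromosome, outside the autosomes compared, read 0.32 in HCC tumor 2 of mouse 6240, against 1.04 in the unaffected liver of that mouse and 0.73 in HCC tumor 4. The part of either signal in the Chr12 values was not tested. The Chr12 decrease of the HCCs was −0.28 without the arrays of this mouse.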

How the results depend on the processing

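Across background corrections, normalization, probe filters, centring, the median, the tests and the samples used, HCA minus unaffected liver kept its direction and call under 18 of 18 alternatives (−0.26 to −0.13) and HCC minus liver kept its direction under 18 of 18 and its call under 15. The HCC call was lost with normexp (−0.086, adjusted p = 0.11 by exact permutation), in female mice alone (−0.17, adjusted p = 0.090 by exact permutation) and inside scan days (−0.24, adjusted p = 0.0503 by exact permutation). HCC minus HCA was uncalled throughout and turned negative without background correction (−0.0052), inside scan days (−0.17), with the HCCs of mouse 6240 averaged (−0.0082), without the 3 arrays of mouse 6240, an alternative chosen after seeing the data (−0.046), and in limma fitted with a replicate block for each mouse (−0.011); leaving out single samples gave −0.023 to 0.071. The mouse block left both tumor calls in place (−0.23 for HCA and −0.24 for HCC, adjusted p = 0.017 and 0.010 by limma). It called 23 of 23 bins lower in HCA (127 of 498 on all autosomes) and 22 of 23 in HCC (89 of 498). Between HCC and HCA it called 0 of 23 (0 of 498 on all autosomes).

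With normexp, 11 of 23 bins (59 of 498 on all autosomes) were called in HCA and 0 (0 of 498) in HCC; in female mice alone 0 (0 of 498) in HCC. With 2 Mb bins, 53 of 56 were called lower in either type, against 327 of 1210 on all autosomes for HCA and 234 of 1210 for HCC. Under the alternatives, classes of loss were counted on Chr12 only. Whole-chromosome losses of Chr12 fell to 3 at a cut-off of −0.3. Tumors without loss numbered 3 at −0.2, 5 at −0.3, 2 without background correction and 3 with normexp, and 1 tumor was partial without mouse 6240. The cause of the normexp change was not tested; in the HCC of mouse 6487 it moved the difference from own liver from −0.41 to −0.03. Livers with any loss were 0 of 9 at −0.1, but 2 with no centring, 1 each with 2 Mb bins, all Chr12 positions, centring on all probes and normexp, and 4 at −0.05.

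The uncalled differences between tumors and livers turned positive for the largest step with all Chr12 positions (0.016) and with normexp (0.00041), and for the spread over bins with all positions (0.0016) and without mouse 6240 (0.0011). Chr12 minus Chr13 was 0.019 with normexp and −0.033 to 0.022 with single samples left out, uncalled throughout. The number of animals and the mixture of cells in a bulk sample limit the size of loss that could be seen.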
